A study of Homo sapiens with 4 samples.

Results

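Bone morphogenetic proteins (BMPs) are secreted signals of the TGF-beta superfamily. They bind paired type I and type II receptor kinases, which phosphorylate SMAD1, SMAD5 and SMAD9, and these enter the nucleus with SMAD4 and switch on target genes such as the ID and MSX families. Antagonists such as GREM1 bind the ligands outside the cell and keep them from their receptors. In the embryo BMP signals take part in germ cell specification and in the formation of extra-embryonic tissue, the tissues that seminoma and yolk sac tumour resemble.

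The genes described are 10 members of this system: the ligands BMP2, BMP4, BMP5 and BMP7, the target genes ID1, ID2, ID3, MSX1 and MSX2, and the antagonist GREM1. They were chosen by name, with earlier results of these data known. All 10 were found among the 19775 genes that had a probe set of their own on the expression arrays. The 4 samples were established human germ cell tumour lines with 1 array each: GCT44 from a yolk sac tumour, TCam-2 from a seminoma, NT2D1 labelled teratoma and taken from a lung metastasis, and GCT27 from an embryonal carcinoma. All 4 were grown untreated with 10% serum, TCam-2 in RPMI-1640 and the other 3 in Dulbecco's medium, so in comparisons of TCam-2 the medium cannot be told apart from the subtype. Elsewhere NT2D1 commonly serves as a model of pluripotent embryonal carcinoma cells, and each subtype is represented by a single line.

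With 1 array per line, differences have no replicate error, no test was run, and precision is limited by the number of arrays. Total RNA of a whole culture was measured, in which fewer cells expressing a gene and less RNA per cell cannot be told apart. Values are intensities in arbitrary linear units. The median of all values, 76.4 units, served as a floor below which levels were not ordered, and a fold against the floor is written "at least". The size rule counted a gene as higher or lower in a line if its floored value lay at least 4-fold, 2 on the log2 scale, beyond the nearest of the other 3 lines. Of the 10 members, all 10 exceeded the floor in at least 1 line and were compared, among 14926 genes in all. They had 20 probe sets assigned to one member alone, and the probe set with the highest mean log2 value represented each gene. Neighbouring lines within 2-fold of each other are not given an order.

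The arrays had medians of 73.6 to 79.3 units, and 49.2% to 50.9% of probe sets lay above the floor. On the GCT44 array the 3'/5' signal ratio of ACTB was 4.21, against 2.49 to 2.97 on the other arrays, and that of GAPDH was 1.04, against 0.898 to 1.09; the part of this in the GCT44 values was not tested. The spiked-in hybridization controls of GCT44 lay 0.29 above the mean of the arrays on the log2 scale and those of GCT27 fell by 0.26 below it. Yolk sac markers were above the floor for 8 of 9 genes in GCT44, against 4 in TCam-2, 2 in NT2D1 and 1 in GCT27, with summed intensities of 51864 in GCT44, 5149 in TCam-2, 392 in NT2D1 and 308 in GCT27. APOA2 alone gave 30689 units of the GCT44 sum, and AFP had 372 units there. SOX17, on both this list and the next, had 3819 units in TCam-2 and 42.7, below the floor, in GCT44. Seminoma and germ cell markers summed to 42209 in TCam-2, against 3582 in GCT44, 5103 in NT2D1 and 6298 in GCT27. Of these 8 markers 7 were above the floor in TCam-2, 3 in GCT44, and 4 each in NT2D1 and GCT27. KIT went the other way, with 1771 units in GCT44 and 1144 in TCam-2. All 6 embryonal carcinoma markers measured were above the floor in TCam-2, NT2D1 and GCT27, and 3 were in GCT44. SOX2, the pluripotency factor, had 20575 units in the line labelled teratoma and 18309 in GCT27. Of 8 fibroblast and mesenchyme markers 4 to 6 were above the floor in each line, with sums of 8474 in GCT44, 14543 in TCam-2, 8777 in NT2D1 and 7997 in GCT27. Of the 4 blood cell markers, PTPRC and CD14 lay below the floor in all 4 lines, CD3E had 88.4 units in GCT44 and lay below it in the others, and HBB lay above it throughout, with 182 units in GCT44, 141 in TCam-2, 153 in NT2D1 and 263 in GCT27.

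The DNA upstream of BMP5, MSX1 and GREM1, each called in a line, and of the ID family is given first, because these genes belong to one pathway and differed between lines in different ways. RefSeq promoter sequences (GRCh38.p14) were matched for 8 of the 10 members, without BMP2 and BMP7. The arrays themselves carry no coordinates. Each window below is 250 bases long, ends at the last base before the annotated start, and is written 5′ to 3′ on the strand of the gene. For GREM1, which has a pair of annotated starts, the window of the first is shown. Capitals mark GGCGCC, a GC-rich motif known to bind BMP-responsive SMADs, and GTCT or its reverse complement AGAC, the short SMAD-binding half-site. Both strands were searched, and no marked motifs overlapped in these windows.
BMP5 (chr6:55875591-55875840, minus strand): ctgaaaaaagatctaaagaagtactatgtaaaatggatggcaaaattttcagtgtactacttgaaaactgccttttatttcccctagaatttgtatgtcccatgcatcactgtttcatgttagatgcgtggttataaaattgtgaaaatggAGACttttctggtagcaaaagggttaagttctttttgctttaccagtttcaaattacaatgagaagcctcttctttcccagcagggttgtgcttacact
ID1 (chr20:31605039-31605288, plus strand): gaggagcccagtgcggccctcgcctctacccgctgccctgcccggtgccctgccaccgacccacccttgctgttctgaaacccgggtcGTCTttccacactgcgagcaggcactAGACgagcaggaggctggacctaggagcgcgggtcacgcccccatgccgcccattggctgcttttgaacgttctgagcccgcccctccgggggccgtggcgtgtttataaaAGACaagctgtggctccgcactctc
ID2 (chr2:8681806-8682055, plus strand): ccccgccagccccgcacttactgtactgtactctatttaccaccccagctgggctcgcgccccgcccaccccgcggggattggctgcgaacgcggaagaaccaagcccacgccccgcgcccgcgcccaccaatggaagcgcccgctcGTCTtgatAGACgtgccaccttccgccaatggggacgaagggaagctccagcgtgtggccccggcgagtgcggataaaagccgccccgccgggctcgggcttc
ID3 (chr1:23559502-23559751, minus strand): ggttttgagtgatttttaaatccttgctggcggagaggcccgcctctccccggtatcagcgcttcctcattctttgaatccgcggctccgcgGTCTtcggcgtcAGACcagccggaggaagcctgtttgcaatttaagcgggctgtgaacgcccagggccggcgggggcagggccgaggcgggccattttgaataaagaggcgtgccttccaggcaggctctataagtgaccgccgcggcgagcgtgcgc
MSX1 (chr4:4859415-4859664, plus strand): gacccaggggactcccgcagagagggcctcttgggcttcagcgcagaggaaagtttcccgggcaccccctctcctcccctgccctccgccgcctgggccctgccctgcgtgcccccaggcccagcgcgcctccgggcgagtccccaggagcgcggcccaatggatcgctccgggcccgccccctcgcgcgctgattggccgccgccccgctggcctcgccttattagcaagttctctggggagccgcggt
GREM1 (chr15:32717754-32718003, plus strand): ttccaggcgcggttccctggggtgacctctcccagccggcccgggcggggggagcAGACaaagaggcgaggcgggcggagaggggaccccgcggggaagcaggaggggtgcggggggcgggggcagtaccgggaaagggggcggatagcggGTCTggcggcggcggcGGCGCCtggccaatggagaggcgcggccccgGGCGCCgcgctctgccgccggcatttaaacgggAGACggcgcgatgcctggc

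GGCGCC occurred in 2 of the 11 windows of the 8 matched members, in GREM1 with 2 copies and in the most upstream BMP4 window with 1. Of 35116 RefSeq windows of the same length, 16.4% held it. The half-site is short and was present in 77.5% of those windows, with a median of 1 copy. It was found 3 times in the windows of ID1 and GREM1 shown, 2 times in ID2 and ID3, once in BMP5 and in no position of the MSX1 window. The best known BMP response element of ID1 lies farther upstream than this window. The BMP5 window stood apart in base composition, with 35.6% G and C and 1 CpG, while the median over all windows was 58% and 11 CpGs. The other windows shown held 19 CpGs in ID1, 29 in ID2, 24 in ID3 and in MSX1, and 32 in GREM1. These counts describe the letters of the windows and were not compared with any binding or methylation measurement.

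BMP2, BMP5 and MSX1 were higher in the yolk sac tumour line GCT44, GREM1 was higher in NT2D1, and ID2 was lower in GCT27. The other 5 members met the size rule in no line. The 3 members of 10 that were higher in GCT44 stand beside 1.7% of all genes compared, and the 0 that were lower beside 1.69%. In NT2D1 1 member was higher, beside 0.523% of all genes, and 0 were lower, beside 0.241%. In GCT27 1 member was lower, beside 0.322%, and 0 were higher, beside 0.603%. No member was called in TCam-2, where 1.49% of all genes were higher and 0.744% lower. The members had been picked with these values known, so the shares describe the set and do not test it. Scaling the arrays to the spiked-in controls turned the 253 higher and 252 lower genes of GCT44 into 181 and 305, and the 90 and 48 of GCT27 into 148 and 38. It moved the median of all genes to -0.30 in GCT44 and to 0.29 in GCT27 on the log2 scale, and the 5 member calls were made under it as well.

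**Figure D1:**
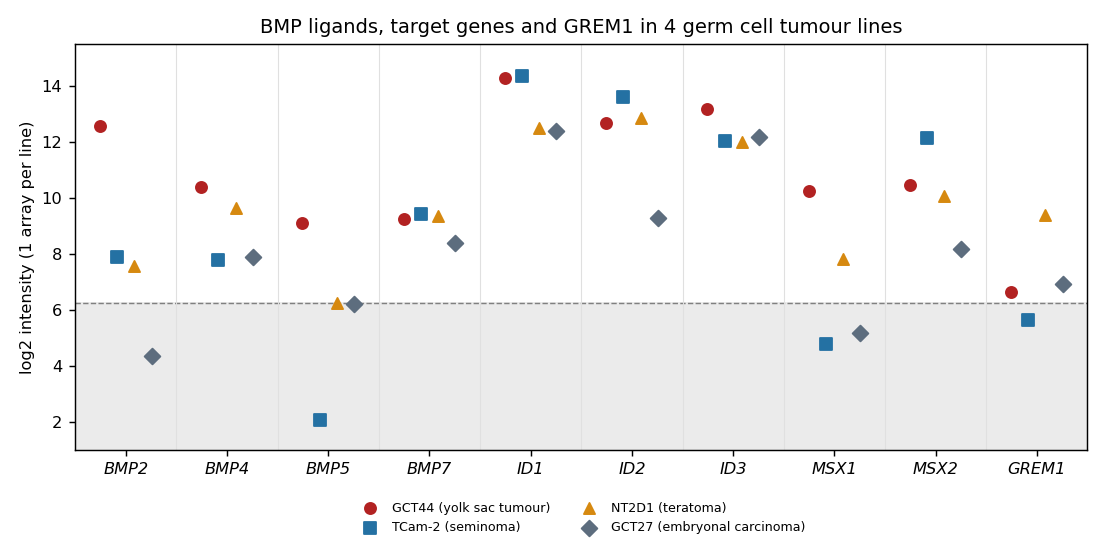
Intensity of each member on a log2 axis, 1 point per line and array, with the floor of 76.4 units as a dashed line and the range below it shaded. GCT44 had the highest value of BMP2, BMP4, BMP5, ID3 and MSX1, and GCT27 had the highest value of none.

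Among the ligands, BMP2 differed most between lines. BMP2, a ligand of bone, heart and extra-embryonic development, had 6081 units in GCT44, against 236 in TCam-2, 190 in NT2D1 and 20.6, below the floor, in GCT27. GCT44 was thus 25.8-fold above the next line and at least 79.6-fold above GCT27, while TCam-2 and NT2D1 lay within 2-fold of each other. A second BMP2 probe set gave 4639 units in GCT44, against 136 in TCam-2, 134 in NT2D1 and 8.9 in GCT27, a margin of 34.1-fold. Both probe sets therefore placed GCT44 far above the other lines, and on both only GCT27 was below the floor. The nearest line was at least 2.48-fold above GCT27 on the first. On the second it was 1.76-fold above the floor, short of 2-fold, so GCT27 was not ordered there. Only 0.154% of the genes compared lay farther above the mean of the other lines in GCT44 than BMP2 did.

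BMP5, a ligand of the same subgroup as BMP7, was above the floor in GCT44 alone of the 4 lines. Its intensity was 555 in GCT44, against 4.18 in TCam-2, 75.1 in NT2D1 and 74.4 in GCT27, all 3 below the floor. The difference was at least 7.27-fold. The other BMP5 probe set had 1083 units in GCT44, against 7.0 in TCam-2, 4.22 in NT2D1 and 8.47 in GCT27, at least 14.2-fold. The 2 probe sets differ in NT2D1 and GCT27, where the chosen probe set lay just under the floor and the other far below it. In TCam-2 both lay far below it. Nothing is read from the values under the floor. With the floor raised to the 70th percentile, 252 units, the margin of the chosen probe set was 1.14 on the log2 scale and the call was lost.

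BMP4 and BMP7 were measured in every line. BMP4, the ligand closest to BMP2 in sequence and an inducer of primordial germ cells in the mouse, had 1344 units in GCT44, 222 in TCam-2, 797 in NT2D1 and 237 in GCT27. GCT44 and NT2D1 lay within 2-fold of each other, as did TCam-2 and GCT27, so the lines fell into a high and a low pair. The margin of GCT44 was 0.75 on the log2 scale and missed the size rule, and without NT2D1 it was 2.50 and met it. BMP4 was represented by a single probe set.

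BMP7, a ligand of kidney and eye development, had 605 units in GCT44, 682 in TCam-2, 649 in NT2D1 and 335 in GCT27. The first 3 lines lay within 2-fold of each other. A second probe set gave the same picture with lower values, 378 in GCT44, 408 in TCam-2, 357 in NT2D1 and 144 in GCT27. The remaining 2 were dim, with 107 units in GCT44, 226 in TCam-2, 168 in NT2D1 and 123 in GCT27 on one. On the other, GCT44 had 96.9 units and the other lines lay below the floor. No BMP7 probe set met the size rule in any line.

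**Figure D2:**
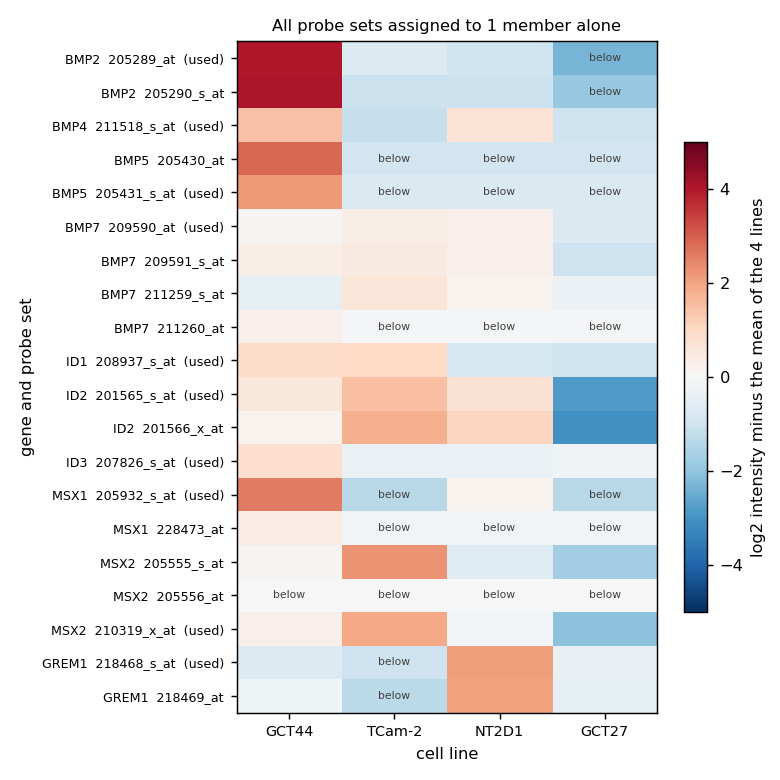
Floored log2 intensity of each of the 20 probe sets assigned to one member alone, relative to the mean of the 4 lines (colour scale from -5 to 5), with "below" marking values under the floor and "used" the probe set that represents the gene. Every probe set of BMP2, BMP5 and MSX1 was highest in GCT44, both of GREM1 in NT2D1, and both of ID2 were lowest in GCT27.

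The target genes did not follow one order of lines. ID1, ID2 and ID3 encode helix-loop-helix proteins that lack a DNA-binding region and hold E proteins in inactive pairs, which keeps cells from differentiating. ID1 had 20052 units in GCT44 and 21099 in TCam-2, against 5810 in NT2D1 and 5372 in GCT27. GCT44 and TCam-2 lay within 2-fold of each other and so did NT2D1 and GCT27, with 3.45-fold between GCT44 and NT2D1. ID1 was represented by 1 probe set, and it met the size rule in no line. With TCam-2 left out the margin of GCT44 was 1.79 on the log2 scale, and with GCT44 left out that of TCam-2 was 1.86, both still short of the rule.

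ID2 was lower in GCT27 than in any other line. Its intensity was 623 in GCT27, against 6561 in GCT44, 12475 in TCam-2 and 7488 in NT2D1, a 10.5-fold difference from the nearest. The other 3 lines lay within 2-fold of each other. A second probe set had 197 units in GCT27, against 1810 in GCT44, 5431 in TCam-2 and 3372 in NT2D1, which is 9.18-fold below the nearest line. Of all genes compared, 99.9% lay above ID2 in their distance from the mean of the other lines in GCT27. Both probe sets carry suffixes for matches to several transcripts, and none remains when such probe sets are left out. A further probe set listed for ID2 together with the pseudogene ID2B was not used.

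ID3 had 9217 units in GCT44, against 4161 in TCam-2, 4088 in NT2D1 and 4600 in GCT27. GCT44 was 2.0-fold above GCT27, the nearest line, and the other 3 lines lay within 2-fold of each other. When the arrays were scaled to the spiked-in controls this margin was 0.45 on the log2 scale, against 1.00 as reported. GCT27, the line with low ID2, was not the lowest line for ID3.

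MSX1 and MSX2 encode homeobox repressors that BMP signals induce in limb, tooth and amnion. MSX1 had 1220 units in GCT44, against 225 in NT2D1 and 27.6 in TCam-2 and 36.0 in GCT27, both below the floor. GCT44 was 5.42-fold above NT2D1 and at least 16-fold above the other lines. The second MSX1 probe set was dim, with 109 units in GCT44, against 23.7 in TCam-2, 38.7 in NT2D1 and 37.7 in GCT27, all below the floor, and its margin of 0.52 on the log2 scale did not meet the rule. The call was lost on that probe set, and with the median over both the margin was 1.97.

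MSX2 was highest in another line than MSX1. It had 4515 units in TCam-2, against 1422 in GCT44, 1064 in NT2D1 and 289 in GCT27. TCam-2 was 3.18-fold above GCT44, short of the size rule, and GCT27 was 3.69-fold below NT2D1, also short of it, with a margin of -1.88 on the log2 scale that became -2.30 without NT2D1. On a second probe set TCam-2 had 1726 units, against 393 in GCT44, 230 in NT2D1 and 110 in GCT27, a 4.39-fold margin that did meet it. The third was below the floor in all 4 lines. TCam-2 was highest and GCT27 lowest on the 2 bright probe sets, and with the median over probe sets MSX2 was higher in TCam-2 with a margin of 2.13 on the log2 scale.

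GREM1, a cystine-knot protein that binds BMP2, BMP4 and BMP7, was higher in NT2D1. Its intensity was 666 in NT2D1, against 98.9 in GCT44, 49.4 in TCam-2 and 120 in GCT27, of which the TCam-2 value was below the floor. NT2D1 was 5.53-fold above GCT27. A second probe set had 786 units in NT2D1, against 171 in GCT44, 5.75 in TCam-2 and 145 in GCT27, a 4.59-fold margin. NT2D1 had the highest value on both, and TCam-2 lay below the floor on both. With the floor at 252 units the margin was 1.40 and the call was lost. Markers of fibroblasts, a cell type in which GREM1 is also active, summed to 8777 units in NT2D1 and to 7997 to 14543 in the other lines. Single markers went different ways, with COL1A1 highest in NT2D1 (6093 units) and COL1A2 below the floor there (61.1). The part of such cells in the GREM1 values was not tested.

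Set out by line, GCT44 had the highest value of 5 members and the lowest of 0. All 10 lay above the floor of 76.4 units in GCT44, where GREM1 was close to it with 98.9. NT2D1 missed this only through BMP5, just under the floor with 75.1 units. TCam-2 had the highest value of 4 members, BMP7, ID1, ID2 and MSX2, with 3 members below the floor. Of these highest values, those of BMP4 in GCT44 and of BMP7, ID1 and ID2 in TCam-2 lay within 2-fold of the next line. NT2D1 had the highest value of GREM1 alone and 1 member below the floor. GCT27 had the highest value of 0 members and lay lowest, or level with the lowest at the floor, for 7 of 10, with 3 below the floor. Over all 14926 genes compared, 4009 had their highest value in GCT44, 3687 in TCam-2, 3526 in NT2D1 and 3704 in GCT27. GCT44 lay lowest, or level with the lowest at the floor, for 5398 of all genes and GCT27 for 4525. Relative to the mean of the other lines, the members had a median difference of 1.16 in GCT44, -0.67 in TCam-2, 0.01 in NT2D1 and -1.36 in GCT27 on the log2 scale. Over all genes compared the same median was -0.04 in GCT44, -0.06 in TCam-2, -0.03 in NT2D1 and -0.02 in GCT27. Summed yolk sac markers were also highest in GCT44, with NT2D1 and GCT27 within 2-fold of each other, and their part in the members' values was not tested.

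**Figure D3:**
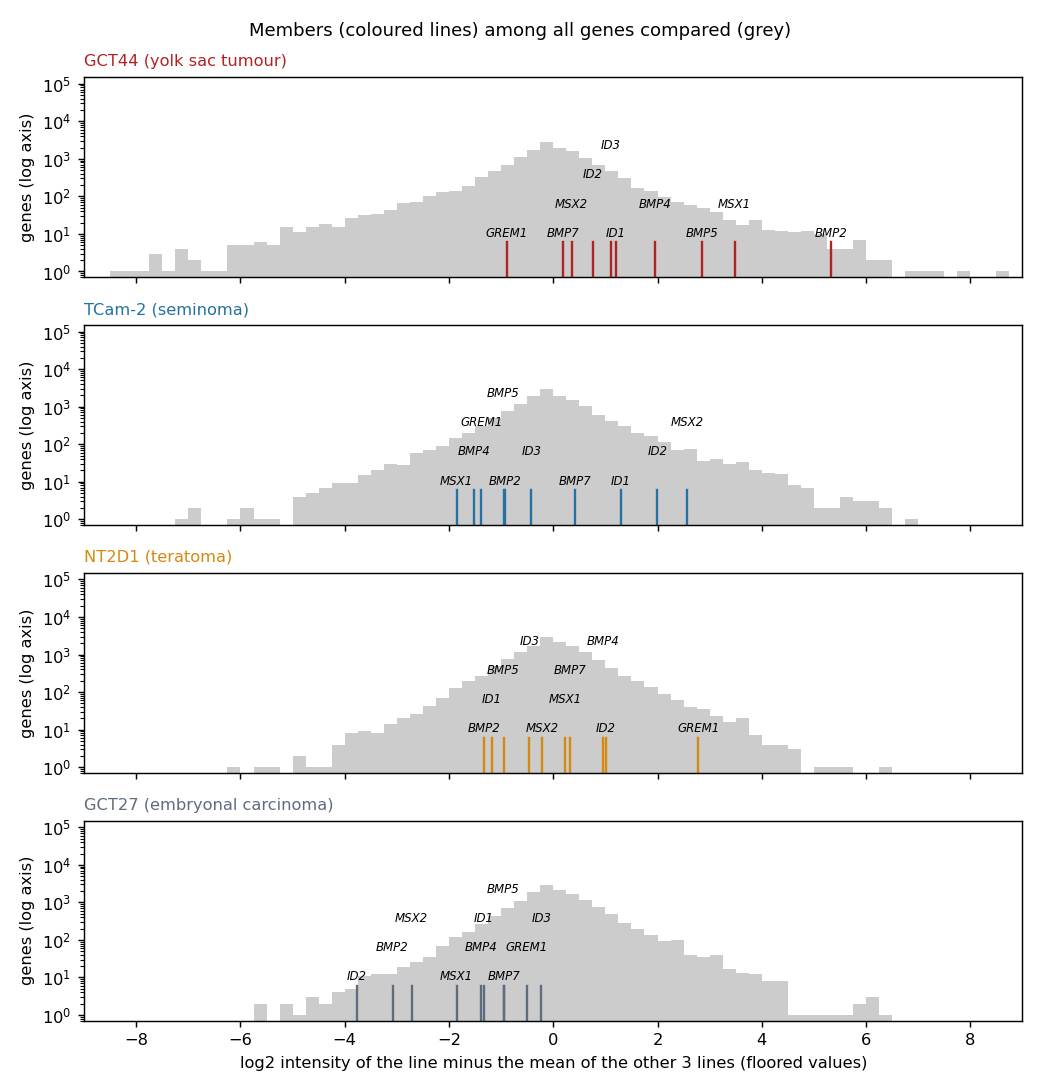
Difference of each member from the mean of the other 3 lines (coloured lines, log2 scale, floored values) over the distribution of all 14926 genes compared (grey bars, number of genes on a log axis), 1 panel per line. In GCT44 9 of the 10 members lie above 0 and GREM1 below it, and in GCT27 all 10 lie below 0.

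GCT44 was also compared with each other line in turn, comparisons that share the GCT44 array. This line was picked because the ligands had been found high there in earlier results of these data. The counts and medians below therefore describe the set and do not test it. Against TCam-2, 4 members were at least 4-fold higher in GCT44 and 0 lower, beside 4.38% and 5.7% of all genes. These were BMP2, BMP4 (6.05-fold), BMP5 and MSX1, while BMP7 (log2 difference -0.17), ID1 (-0.07), ID2 (-0.93) and MSX2 (-1.67) were not above TCam-2. Against NT2D1, BMP2, BMP5 and MSX1 were higher and GREM1 was lower, with a log2 difference of -2.75, beside 3.77% of all genes higher and 4.76% lower. Against GCT27, 6 members were higher and 0 lower, beside 4.15% and 5.3%. Besides BMP2, BMP5 and MSX1 these were BMP4 (5.67-fold), ID2 (10.5-fold) and MSX2 (4.92-fold). Scaled to the spiked-in controls, which moves all genes as given above, the log2 differences from GCT27 were 1.95 for BMP4 and 1.75 for MSX2, just under the rule. The median over the members was 0.76 against TCam-2, 0.96 against NT2D1 and 2.40 against GCT27, and that over all genes was 0 in each.

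The rest of the pathway was read from lists of 82 genes in all, members included, of which 63 were compared, 16 lay below the floor in every line and 3 had no probe set of their own and were not analysed here. Of the 53 compared that are not members, 1 was higher in GCT44 (1.89% of them), 3 were higher in TCam-2 (5.66%), 1 was higher in NT2D1 (1.89%) and 1 was lower in GCT27 (1.89%). The shares of all genes compared were 1.7% in GCT44, 1.49% in TCam-2, 0.523% in NT2D1 and 0.322% lower in GCT27, so the GCT44 share was near that background. Their median difference from the other lines was -0.07 in GCT44, -0.04 in TCam-2, 0.01 in NT2D1 and -0.47 in GCT27, beside the all-gene medians of -0.04 in GCT44, -0.06 in TCam-2, -0.03 in NT2D1 and -0.02 in GCT27.

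Of 8 ligands compared, those outside the members were low. BMP6 had 50.8 units in GCT44, 65.3 in TCam-2, 115 in NT2D1 and 84.6 in GCT27, and BMP8B, GDF2 and GDF7 reached at most 181 units in any line. Of 7 receptors and co-receptors 0 met the size rule. BMPR1B, a type I receptor, had 803 units in GCT44, against 296 in TCam-2, 317 in NT2D1 and 54.1 in GCT27. ACVR2B, a type II receptor shared with activin, had 6507 units in GCT44, 3590 in TCam-2, 6339 in NT2D1 and 3782 in GCT27. RGMA, a co-receptor for BMP2 and BMP4, was lowest in GCT44, with 51.8 units in GCT44, below the floor, against 287 in TCam-2, 698 in NT2D1 and 283 in GCT27.

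All 4 SMAD transducers lay above the floor in every line, and for SMAD1, SMAD4 and SMAD5 the 2 highest lines lay within 2-fold of each other. SMAD9 came closest to the rule, with 1285 units in GCT44, against 238 in TCam-2, 327 in NT2D1 and 111 in GCT27, a 3.93-fold margin. SMAD4, the common partner, had 5334 units in GCT44, against 2733 in TCam-2, 2465 in NT2D1 and 1757 in GCT27. SMAD5 had 6110 units in GCT44 and 4618 in NT2D1, within 2-fold, with 2843 in TCam-2 and 3221 in GCT27. SMAD1 had 1404 units in GCT44, 1754 in TCam-2, 2447 in NT2D1 and 989 in GCT27.

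Inhibitors inside the cell are themselves BMP targets in many cell types, and 0 of 7 met the rule. SMAD6, the inhibitory SMAD most tied to BMP signals, had 1493 units in GCT44, against 395 in TCam-2, 574 in NT2D1 and 168 in GCT27. SKIL, a repressor of SMAD activity, had 4225 units in GCT44, 3409 in TCam-2, 5529 in NT2D1 and 4845 in GCT27, all within 2-fold.

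Secreted antagonists divided between lines. Of 16 compared, BMPER was higher in GCT44, SOSTDC1 and CRIM1 were higher in TCam-2, GREM1 was higher in NT2D1 and 0 were lower in any line. BMPER, a chordin-like regulator that binds BMPs outside the cell, had 1437 units in GCT44, against 15.2 in TCam-2, 32.1 in NT2D1 and 19.8 in GCT27, all below the floor, at least 18.8-fold. SOSTDC1, which antagonizes BMP and WNT signals, had 6920 units in TCam-2, against 6.07 in GCT44, 110 in NT2D1 and 25.6 in GCT27. CRIM1, a membrane protein with chordin-like repeats, had 5054 units in TCam-2, against 808 in GCT44, 738 in NT2D1 and 718 in GCT27, and all 3 of its probe sets met the rule there.

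NOG, CHRDL1 and FST, which missed the rule, had their highest value in NT2D1, as GREM1 did. Of the 16 antagonists compared, 5 had their highest value in NT2D1, 4 in GCT44, 4 in TCam-2 and 3 in GCT27. Over all 14926 genes compared, 3526 had their highest value in NT2D1. NOG, which encodes noggin, had 905 units in NT2D1 and 302 in GCT27, against 59.8 in GCT44 and 4.04 in TCam-2, both below the floor. CHRDL1, a chordin-like antagonist, had 1632 units in NT2D1 and 1042 in GCT27, within 2-fold, against 24.2 in GCT44 and 56.5 in TCam-2. FST, which encodes follistatin, had 6152 units in NT2D1, against 2719 in GCT44, 1382 in TCam-2 and 386 in GCT27. FSTL1, a follistatin-like glycoprotein, had its highest value in TCam-2, with 8687 units against 1722 in GCT44, 5421 in NT2D1 and 3716 in GCT27. TCam-2 and NT2D1 lay within 2-fold of each other for FSTL1.

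Of 14 target genes compared, members included, 8 had their highest value in TCam-2, 5 in GCT44, 1 in NT2D1 and 0 in GCT27. Over all 14926 genes compared, 3687 had their highest value in TCam-2. Of the targets highest in TCam-2, ID1, ID2, ID4 and HAND1 lay within 2-fold of the next line, as did ATOH8 of those highest in GCT44. GCT27 lay lowest, or level with the lowest at the floor, for 11 of the 14, against 4525 of all 14926 genes. GATA3, a trophoblast and amnion factor, was lower in GCT27 with 283 units, against 17360 in GCT44, 5874 in TCam-2 and 1806 in NT2D1, and its 3 probe sets all met the rule. TBX3 missed the rule with 5858 units in GCT44, against 2076 in TCam-2, 191 in NT2D1 and 55.7 in GCT27. HEY1, a repressor also induced by NOTCH, was higher in TCam-2 with 1276 units, against 125 in GCT44, 120 in NT2D1 and 271 in GCT27. With the arrays scaled to the spiked-in controls the margin of HEY1 was 1.99 on the log2 scale and its call was lost. DLX5, a homeobox factor, was higher in NT2D1 with 323 units, against 71.9 in GCT44, 34.9 in TCam-2 and 7.31 in GCT27, all 3 below the floor. With the floor at the 70th percentile the margin of DLX5 was 0.36 and its call was lost. ID4, the ID family gene outside the members, had 542 units in GCT44, 6035 in TCam-2, 3760 in NT2D1 and 733 in GCT27, an order unlike that of ID1, ID2 or ID3.

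**Figure D4:**
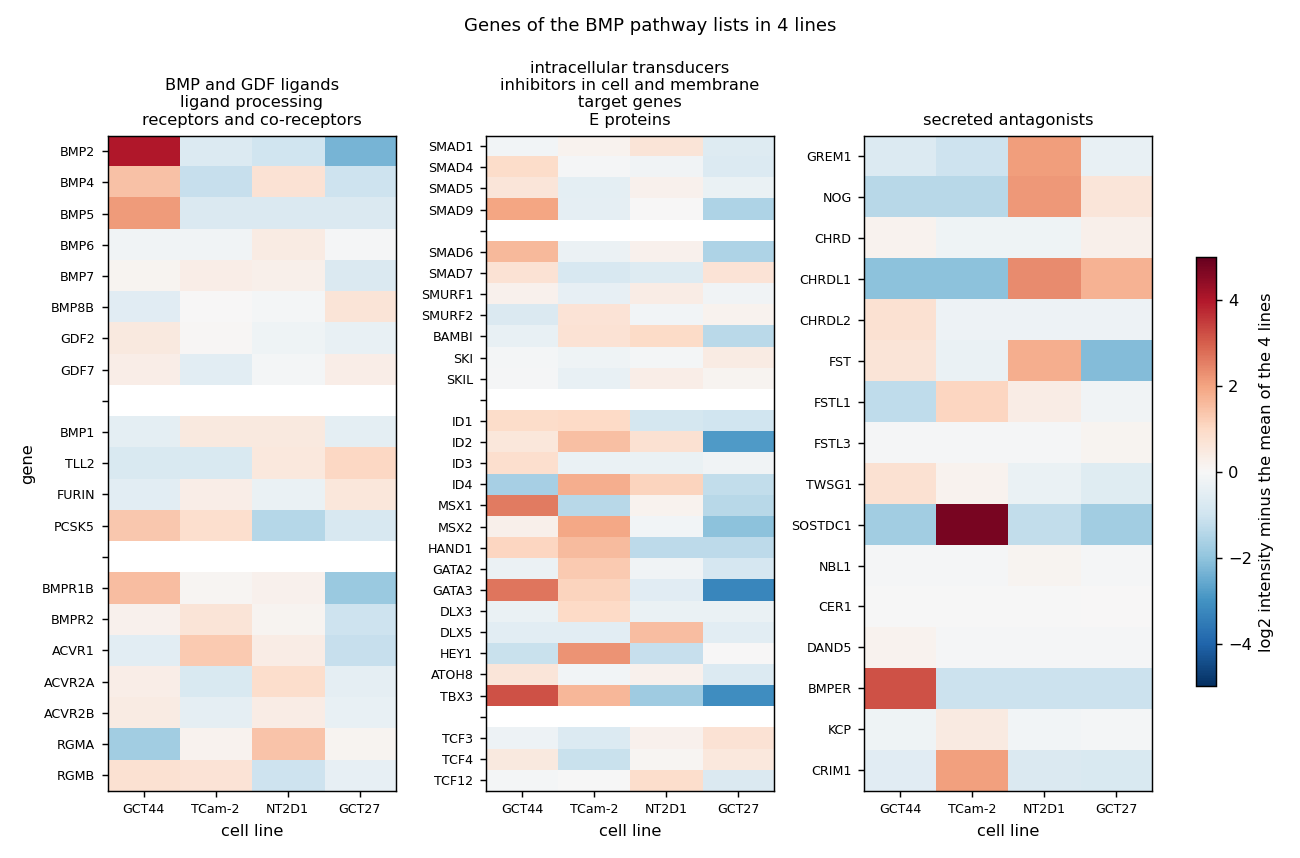
Floored log2 intensity of the 63 pathway genes compared, relative to the mean of the 4 lines (colour scale from -5 to 5), grouped by role, with blank rows between groups. The strongest colours belong to BMP2 in GCT44 and SOSTDC1 in TCam-2.

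For each member whose floored values spanned at least 2 on the log2 scale, the 3 genes with the nearest pattern were found by Euclidean distance over the 4 lines, each gene centred on its mean. With 4 points such likeness is weak, and it is given as a description. The distance was not scaled to the span of a gene, so counts of near genes also depend on that span, largest for BMP2 at 6.31. BMP2 had the fewest near genes, with 2 within a distance of 1, the protocadherin PCDH7 (0.92) and the carbonyl reductase CBR1 (0.94). The matrix protein FMOD (1.01) followed. PCDH7 had 10402 units in GCT44, 199 in TCam-2, 328 in NT2D1 and 70.5 in GCT27. BMP5 had 210 genes within that distance, the nearest being LUARIS, OSR2 and SLC46A3 (0.04, 0.04 and 0.06). For BMP5 3 lines were set to the floor, so its pattern holds only the GCT44 level above the floor. BMP4 had 127, led by SCCPDH, PALLD and DYRK3 (0.16 to 0.29).

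ID2 had 10 such genes, led by HTATIP2 (0.48), KCTD15 (0.57) and NEDD9 (0.70). HTATIP2 had 197 units in GCT27, against 3009 in GCT44, 4680 in TCam-2 and 2242 in NT2D1. MSX1 had 33, led by FABP7, H2BW4P and TRABD2B (0.21 to 0.37), and MSX2 had 22, led by MAP3K8, CCDC92 and TET2 (0.46 to 0.60). GREM1 had 110, led by JAKMIP2, C6orf141 and SHISAL1 (0.32 to 0.38). None of these genes belonged to the pathway lists.

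**Figure D5:**
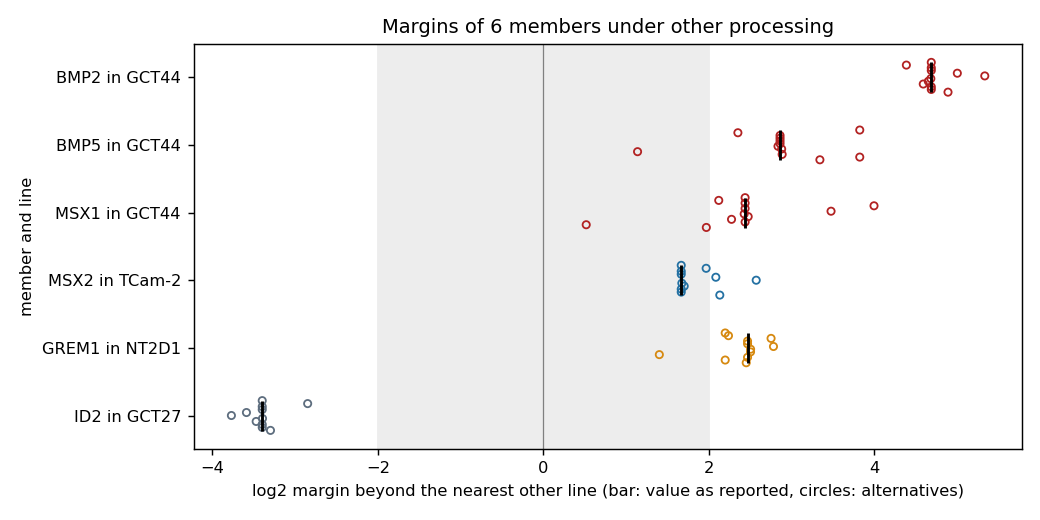
Margin of 6 members beyond the nearest other line on the log2 scale (positive: above all other lines, negative: below all), with the range short of the size rule shaded. The black bar is the value as reported. Circles are alternatives, among them the difference from the mean of the other lines. Alternatives that moved the threshold or dropped the filter have no circle. BMP2 in GCT44 and ID2 in GCT27 stayed outside the shaded range under every alternative that gave a value, and MSX1 reached down to 0.52.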

How the data were processed

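Total RNA of 4 lines, labelled with biotin, was measured on 1 single-colour array of 54675 probe sets per line. Each deposited value is a linear intensity, with a trimmed mean of 500.1 on every array. Per the submitters' processing notes the authors used RMA, without a version, a method whose output is commonly on a log2 scale. The range here is not that of log values, so the numbers were treated as linear and log2 was taken here with Python 3.11.15, numpy 2.4.6 and pandas 2.3.3. The step from scans to values, and the genome build, are not given in the sources used here.

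Probe sets were assigned through the platform annotation, updated by gene ID: 41097 had 1 symbol, 1801 several and 11777 were not listed. Genes were compared when their highest value reached the floor. The size rule has no error rate. The script that applies it was checked on simulated arrays, and no statistical test was made of the real ones. Alternatives covered the probe set, floor, filter, scaling, margin and each line left out. The members, pathway lists and marker lists were chosen with earlier results of these data known. The text names all members, every listed gene that met the rule, the gene of highest mean intensity in each list, and the 3 nearest genes in pattern; other listed genes were named after their values were seen. Probe levels are not compared between genes. Promoter windows came from RefSeq.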

Additional observations from a re-analysis of the deposited data

How the results depend on the processing

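Of 16 alternatives, 2 were chosen after seeing the data, scaling to the spiked-in controls and the probe set with the highest linear mean. No called value changed its direction under any of them. BMP2 kept its call in GCT44 with margins of 4.39 to 5.34, and ID2 in GCT27 with -3.77 to -2.85, over the alternatives that kept the threshold and gave a value. Of these, 5.34 and -3.77 are differences from the mean of the other lines. Leaving out probe sets ending in _s_at or _x_at removed ID2, ID1, BMP4 and ID3 altogether. MSX2 kept only a probe set below the floor and was not compared. The margin of MSX1 in GCT44 was then 0.52, and 2 members were higher there. In GCT27 0 members and 1 pathway gene were lower under this setting, and in NT2D1 1 pathway gene was higher. With the floor at the 70th percentile 0 members and 0 pathway genes were higher in NT2D1. With no floor 2 members and 5 pathway genes were lower in GCT27, 1 member and 2 pathway genes lower in TCam-2, 4 pathway genes lower in GCT44 and 1 lower in NT2D1. With the median over probe sets 1 member was higher in TCam-2. Against the mean of the other lines, 9 pathway genes were higher and 4 lower in GCT44, 7 higher and 1 lower in TCam-2, 5 higher and 1 lower in NT2D1, and 1 higher and 10 lower in GCT27, with 1 member higher in TCam-2 and 3 lower in GCT27. At a margin of 1, 10 pathway genes were higher and 2 lower in GCT44, 6 higher and 1 lower in TCam-2, 5 higher in NT2D1 and 10 lower in GCT27, with 1 member higher in TCam-2 and 3 lower in GCT27. At a margin of 3, 2 pathway genes and 1 member were higher in GCT44, and 1 pathway gene in TCam-2. In NT2D1 0 pathway genes and 0 members were higher, and in GCT27 1 pathway gene was lower. Over all genes this margin gave 105 higher and 111 lower in GCT44, and 81 and 32 in TCam-2. In NT2D1 it gave 23 and 15, and in GCT27 23 and 12. Leaving out each other line gave 3 to 4 members higher in GCT44, 0 to 1 in TCam-2 (1 without GCT44, MSX2 at 2.09) and 1 to 2 lower in GCT27 (2 without NT2D1, with MSX2 at -2.30); without NT2D1 GCT44 gained BMP4. For pathway genes it gave 4 to 8 higher and 0 to 1 lower in GCT44, 3 to 6 higher and 0 to 1 lower in TCam-2, 3 to 4 higher and 0 to 3 lower in NT2D1, and 0 to 1 higher and 4 to 5 lower in GCT27. Over all genes, with threshold and nearest-line comparison unchanged, 150 to 344 were higher and 98 to 713 lower in GCT44. In TCam-2 143 to 361 were higher and 60 to 326 lower. In NT2D1 these were 29 to 267 and 22 to 198, and in GCT27 57 to 265 and 17 to 193. The cause of each change was not tested beyond the values dropped or the threshold moved. No paired analysis was possible because each line has 1 array. Depth does not apply to arrays, and signal over background was not given, so the floor stands in for it.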

Other observations

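E proteins are the partners that ID proteins hold inactive, and none of the 3 measured met the size rule in any line. TCF3 had 2505 units in GCT44, 1820 in TCam-2, 3411 in NT2D1 and 4930 in GCT27. TCF4 had 5049 units in GCT44, 1651 in TCam-2, 3902 in NT2D1 and 5156 in GCT27. TCF12 had 2798 units in GCT44, 2964 in TCam-2, 5522 in NT2D1 and 1826 in GCT27. In TCam-2 the list had a median difference from the mean of the other lines of -0.93 on the log2 scale, beside -0.06 over all genes compared, and TCam-2 was within 2-fold of GCT44 for TCF3.

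Enzymes that process BMP precursors or release BMPs from chordin were mostly dim, and 0 of 4 compared met the rule. PCSK5, a precursor-cleaving protease, had 2920 units in GCT44, 2040 in TCam-2, 425 in NT2D1 and 661 in GCT27. FURIN, another such protease, had 114 units in GCT44, 208 in TCam-2, 132 in NT2D1 and 246 in GCT27. BMP1, which cleaves chordin, had 74.5 units in GCT44, below the floor, 152 in TCam-2, 150 in NT2D1 and 73.5 in GCT27, also below it.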
